A study of Mus musculus with 8 samples.

Results

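A set of 10 genes of the YAP-TEAD pathway was followed through RNA sequencing of 4T1 cells, a mouse line of triple-negative breast cancer. They are the target genes Ccn1 (also written Cyr61), Ccn2, Ankrd1, Amotl2 and Axl, the co-activators Yap1 and Wwtr1 (which encodes TAZ), the kinase gene Lats2, and the DNA-binding partners Tead1 and Tead4. These 10 of the 54532 genes listed were picked by name as members of the pathway, with earlier results of the same libraries in view, and Ccn2 was picked because it rose strongly in MCT-1-silenced cells. Its values in that comparison are therefore a description and carry no test.

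The cells stably carried either a scramble shRNA (scramble) or 1 shRNA against MCT-1 (shMCT-1), whose gene is Mcts1. The medium of all groups held 6 µg/ml puromycin. Cells received anti-IL-6R, an antibody to the interleukin-6 receptor, at 100 ng/ml or IgG for 48 h, so that each background was measured with either treatment, in 4 groups of 2 libraries that the study stated to be separate biological replicates. A group is written as its background + its treatment, such as shMCT-1 + IgG. Each background was 1 transfected line, and whether it was a pool or a clone was not given, so the effect of silencing and a difference between the 2 lines cannot be told apart.

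In the Hippo pathway, MST kinases activate LATS kinases, which phosphorylate YAP and TAZ and hold them in the cytoplasm. YAP and TAZ that escape this step enter the nucleus, bind TEAD proteins and switch on genes such as Ccn1, Ccn2 and Ankrd1. Because the control acts largely on the YAP and TAZ proteins, transcript levels of Yap1 and Wwtr1 do not measure their activity. The pathway is well known in breast cancer for its ties to growth, invasion and contact with the matrix.

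Promoter sequence was looked at for the core DNA word of TEAD proteins, GGAATG, and the promoters of 4 target genes are shown because 2 of these genes rose in shMCT-1 cells and 2 did not pass the test. RefSeq (GRCm38.p6) promoters were found for 7 of the 10 genes, all but Ccn2, Tead1 and Tead4. Each line holds the 250 bases before a RefSeq start of the gene, 5′ to 3′ on the strand of the gene. Matches to the word on either strand are in capitals. The windows of Ankrd1 and Amotl2 lie inside the gene coordinates given further below, which come from another annotation, GENCODE M21.
Ccn1 (chr3:145649986-145650235, minus strand): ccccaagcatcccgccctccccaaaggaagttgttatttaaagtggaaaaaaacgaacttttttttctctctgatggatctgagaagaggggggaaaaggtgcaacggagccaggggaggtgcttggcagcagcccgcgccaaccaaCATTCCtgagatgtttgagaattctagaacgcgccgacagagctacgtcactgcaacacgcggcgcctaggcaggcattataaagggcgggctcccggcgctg
Ankrd1 (chr19:36119845-36120094, minus strand): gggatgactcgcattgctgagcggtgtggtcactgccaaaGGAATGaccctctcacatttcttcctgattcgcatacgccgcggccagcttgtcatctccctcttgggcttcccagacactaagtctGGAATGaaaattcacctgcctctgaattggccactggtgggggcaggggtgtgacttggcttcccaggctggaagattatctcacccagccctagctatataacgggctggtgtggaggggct
Amotl2 (chr9:102717554-102717803, plus strand): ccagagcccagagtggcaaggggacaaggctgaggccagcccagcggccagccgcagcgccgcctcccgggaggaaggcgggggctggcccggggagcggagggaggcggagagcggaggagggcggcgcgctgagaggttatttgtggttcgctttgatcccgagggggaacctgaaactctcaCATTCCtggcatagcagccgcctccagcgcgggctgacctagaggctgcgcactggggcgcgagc
Axl (chr7:25788734-25788983, minus strand): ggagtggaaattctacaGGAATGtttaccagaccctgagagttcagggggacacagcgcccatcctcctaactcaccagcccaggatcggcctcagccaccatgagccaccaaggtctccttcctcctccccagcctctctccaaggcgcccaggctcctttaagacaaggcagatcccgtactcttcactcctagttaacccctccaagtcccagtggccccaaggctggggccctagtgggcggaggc

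Of the 7 genes, 6 held at least 1 match in this window, and Lats2 held none at either of its 2 starts. Ankrd1 held 2 matches, the first beginning 210 and the second 123 bases before its RefSeq start. The match of Ccn1 began 103 bases, that of Amotl2 65 bases and that of Axl 233 bases before the RefSeq start of each. Over all 32851 promoter windows of the same length, 12.6% held the word, and of the 27025 genes with a window 14.4% held it in at least 1. The AP-1 word TGANTCA, present in 6.75% of all windows, and the CArG box bound by SRF, present in 1.47%, were in none of the windows of these genes. All 3 motifs were searched on both strands. The word was thus present in Ccn1 and Ankrd1, which rose, and in Amotl2 and Axl, which were not called. A match is a string of letters and was not shown to be bound.

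Library totals lay between 19839255 and 33063535 counts, and the 4 shMCT-1 libraries, at up to 23448547, were all shallower than the 4 scramble libraries, at 24100056 or more. Mcts1 was at 11.8 to 15.4 CPM, the count of a gene scaled to the total count of its library, in scramble and at 4.92 to 6.70 CPM in shMCT-1 libraries, with no overlap and log2 fold changes of -1.08 with IgG and -1.13 with anti-IL-6R (edgeR adjusted p = 0.000676 and 0.000557). All 5 epithelial markers were expressed and summed to 2325 to 2477 CPM in scramble and 3073 to 3331 CPM in shMCT-1 libraries. Epcam went from at most 4.93 CPM to at least 49.4 CPM. Markers of fibroblasts summed to 12.6 to 17.3 CPM, nearly all Pdgfra, those of leukocytes to 2.75 to 7.51 CPM, nearly all Cd68, with Adgre1 and Cd3e at 0 in every library, and those of endothelium to 0.0960 to 1.82 CPM. The shMCT-1 libraries were above the scramble libraries in the leukocyte sum (5.51 CPM or more against at most 3.52 CPM) and in the endothelial sum (0.554 CPM or more against at most 0.332 CPM). Long genes were lower in shMCT-1 libraries: with IgG, the median log2 fold change was 0.27 for genes with 111 to 2494 bases of exon and -0.27 for genes with 6541 bases or more. The 2 shMCT-1 + anti-IL-6R libraries also differed in this way, with replicate 2 minus replicate 1 at a median of -0.15 for the same short genes and 0.18 for the same long genes. Mitochondrial genes took 1.97 to 2.52% of counts in scramble and 0.840 to 1.53% in shMCT-1 libraries. Library depth, the mitochondrial share, the marker sums and the length trend moved with the shRNA, and their part in the results was not tested. Values with a correction for length, in which the trend of each library with exonic length was removed, are given beside the calls they change and the called values of named genes they move by over 1.5 times. That correction was chosen after the data were seen.

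**Figure D1:**
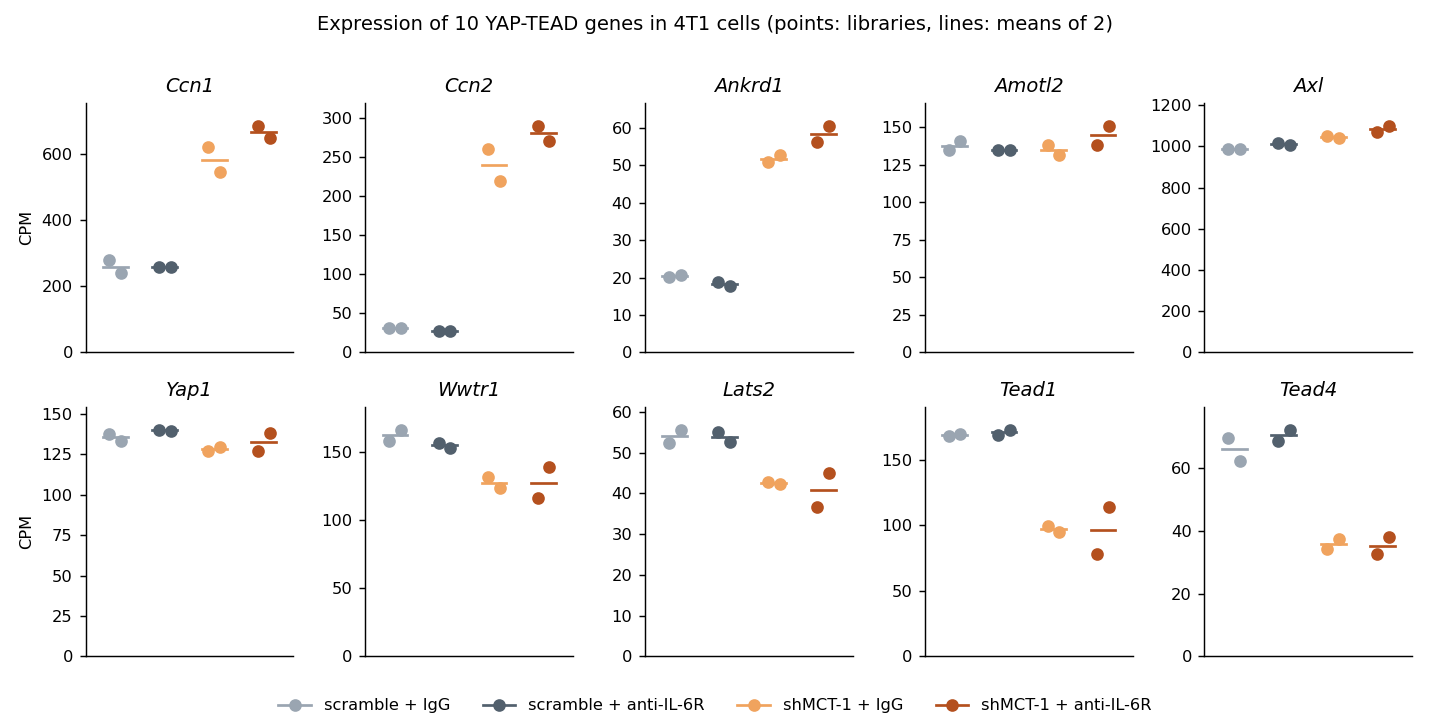
CPM of the 10 genes in each of the 8 libraries (points) with the mean of each group of 2 (lines); every vertical axis starts at 0. Ccn1, Ccn2, Ankrd1 and, by little, Axl were higher and Wwtr1, Lats2, Tead1 and Tead4 lower in all 4 shMCT-1 libraries than in any scramble library, while Amotl2 and Yap1 overlapped.

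The comparison of shMCT-1 with scramble cells asked how silencing of MCT-1 changed the pathway. The target genes split: Ccn1 and Ankrd1 rose more than 2-fold and Ccn2 was also higher, whereas Amotl2 and Axl did not pass the test. Of the genes for the DNA-binding partners of YAP and TAZ, Tead1 and Tead4 were lower. Outside the 10 genes, Tead3 was also lower and Tead2 was higher. With IgG, 6 of the 9 genes other than Ccn2 were called (adjusted p below 0.05 in edgeR's quasi-likelihood test over all genes), 2 higher and 4 lower. Of the 12704 genes tested, 54.4% were called in this comparison, 28.3% higher and 26.2% lower, so a count of 6 of 9 lay near the background. With anti-IL-6R, 5 of 9 were called, 2 higher and 3 lower, beside 54.3% of all genes, 26.9% higher and 27.3% lower. The 5 genes called with anti-IL-6R were called in the same direction with IgG, 2 higher and 3 lower, as were 46.3% of all genes, 23.6% higher and 22.7% lower. The balance turned with the correction for length, to 3 higher and 3 lower of 9 with IgG (27.0% and 25.8% of all genes), 4 higher and 2 lower with anti-IL-6R (27.0% and 25.5%), and 3 higher and 2 lower in both (22.9% and 21.2%). In these bulk samples, fewer cells that express a gene and less RNA per cell cannot be told apart.

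Ccn2 encodes a secreted matricellular protein, long known as connective tissue growth factor, and is among the best known YAP-TEAD targets. Ccn2 (ENSMUSG00000019997, chr10:24595442-24598683 of GRCm38, plus strand) was at 31.6 and 31.1 CPM in scramble + IgG and at 27.0 and 27.9 CPM in scramble + anti-IL-6R. It was at 260.1 and 219.8 CPM in shMCT-1 + IgG and at 290.1 and 269.8 CPM in shMCT-1 + anti-IL-6R. All 4 shMCT-1 libraries were above all 4 scramble libraries. The ratio of the group means was 7.66 with IgG and 10.2 with anti-IL-6R, and the log2 fold changes were 2.98 ± 0.11 and 3.41 ± 0.11 (SE). The correction for length gave 2.82 and 3.27. A higher log2 fold change was found for 1.28% of the tested genes with IgG and 1.13% with anti-IL-6R.

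Ccn1 encodes another matricellular protein of the same family, which binds integrins. Ccn1 (ENSMUSG00000028195, chr3:145646976-145649981, minus strand) was at 279.9 and 240.4 CPM with IgG and 258 and 259.95 CPM with anti-IL-6R in scramble cells, and at 622 and 546 CPM with IgG and 687 and 651 CPM with anti-IL-6R in shMCT-1 cells. All shMCT-1 libraries were well above all scramble libraries. Ccn1 rose, by a log2 fold change of 1.21 ± 0.099 (SE) with IgG (edgeR adjusted p = 1.78e-05) and 1.43 ± 0.100 with anti-IL-6R (edgeR adjusted p = 6.12e-06). The correction for length lowered these to 0.97 and 1.21, and both calls held.

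Ankrd1 encodes an ankyrin repeat protein that acts in the nucleus and in the muscle sarcomere. Ankrd1 (ENSMUSG00000024803, chr19:36111961-36120099, minus strand) was at 20.1 and 20.8 CPM with IgG and 18.7 and 17.7 CPM with anti-IL-6R in scramble cells, and at 50.8 and 52.7 CPM with IgG and 56.3 and 60.6 CPM with anti-IL-6R in shMCT-1 cells. The libraries of the 2 backgrounds lay far apart and the replicates close together. Ankrd1 rose, by a log2 fold change of 1.38 ± 0.089 (SE) with IgG (edgeR adjusted p = 4.33e-06) and 1.74 ± 0.089 with anti-IL-6R (edgeR adjusted p = 9.94e-07). Of the tested genes, 4.27% with IgG and 2.89% with anti-IL-6R had a higher log2 fold change.

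Amotl2 encodes an angiomotin-like scaffold that binds YAP and is itself a YAP target. Amotl2 (ENSMUSG00000032531, chr9:102716672-102733418, plus strand) was at 135 and 141 CPM with IgG and 135 and 135 CPM with anti-IL-6R in scramble cells, and at 138 and 132 CPM with IgG and 138 and 151 CPM with anti-IL-6R in shMCT-1 cells. The 2 backgrounds overlapped. The log2 fold change was 0.01 with IgG (95% interval -0.17 to 0.20) and 0.15 with anti-IL-6R (-0.03 to 0.34), with edgeR adjusted p = 0.906 and 0.144. The value with IgG changed sign under other scalings, to -0.0056 with RLE size factors (the scaling of DESeq2), and with the correction for length the value with anti-IL-6R was 0.26 and was called (edgeR adjusted p = 0.0124).

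Axl encodes a receptor tyrosine kinase of the TAM family, which binds Gas6 and is known for its part in invasion. Axl (ENSMUSG00000002602, chr7:25757273-25788705, minus strand) was at 985 and 989.7 CPM with IgG and 1018 and 1007 CPM with anti-IL-6R in scramble cells, and at 1049 and 1042 CPM with IgG and 1069.7 and 1101 CPM with anti-IL-6R in shMCT-1 cells. Every shMCT-1 library was above every scramble library, but by little. The log2 fold change was 0.12 with IgG (95% interval -0.05 to 0.30, edgeR adjusted p = 0.196) and 0.16 with anti-IL-6R (-0.02 to 0.33, edgeR adjusted p = 0.111).

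**Figure D2:**
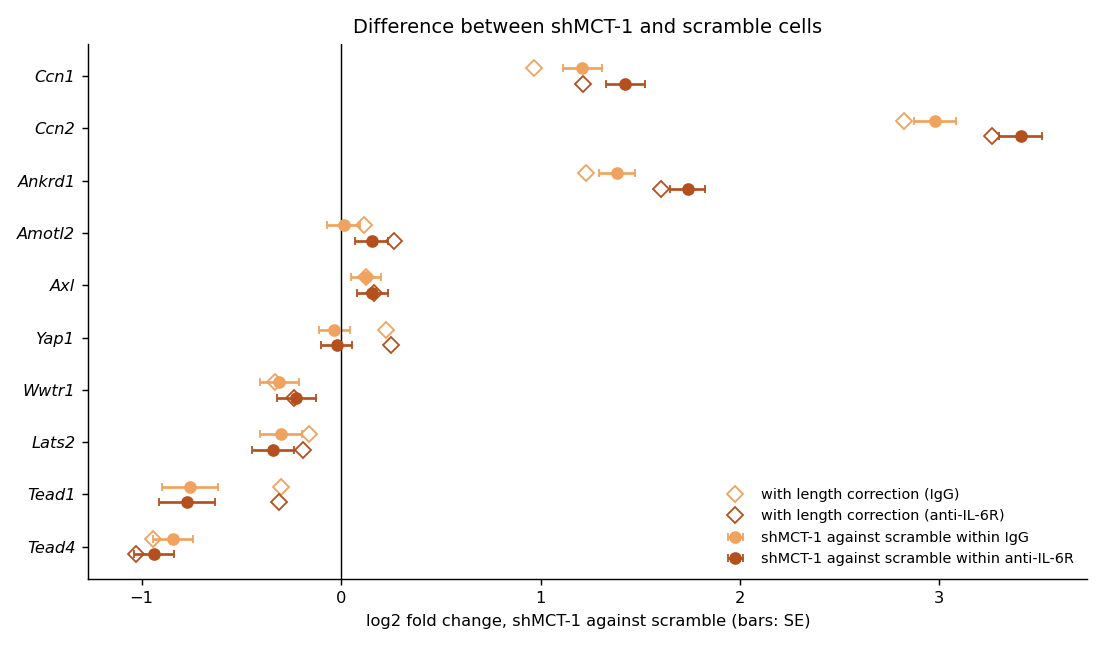
Log2 fold change of each gene in shMCT-1 against scramble cells (horizontal axis) with IgG and with anti-IL-6R; filled points with bars give the fit ± SE and open diamonds the fit with the correction for length. Ccn1, Ccn2 and Ankrd1 stayed above 0 and Wwtr1, Lats2, Tead1 and Tead4 below 0 in both fits, while Yap1 moved from -0.03 to 0.22 with IgG.

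Among the co-activators, the transcript of Yap1 did not pass the test, and that of Wwtr1 was lower with IgG. Yap1 (ENSMUSG00000053110, chr9:7931999-8004596, minus strand) was at 134 to 140.4 CPM in scramble and at 127 to 138 CPM in shMCT-1 libraries, which overlapped. Its log2 fold change was -0.03 with IgG (95% interval -0.21 to 0.14) and -0.02 with anti-IL-6R (-0.20 to 0.15), with edgeR adjusted p = 0.737 and 0.827. Yap1 has 9257 bases of exon, and genes within 1.25-fold of that length had a median log2 fold change of -0.24 with IgG and -0.25 with anti-IL-6R. With the correction for length the log2 fold changes of Yap1 turned to 0.22 and 0.25 and were called higher (edgeR adjusted p = 0.0232 and 0.0133). In the fit without that correction, leaving out shMCT-1 + anti-IL-6R replicate 1 gave 0.05 with anti-IL-6R, which was not called.

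Wwtr1 (ENSMUSG00000027803, chr3:57455649-57575910, minus strand) was at 158 and 166 CPM with IgG and 157 and 153 CPM with anti-IL-6R in scramble cells, and at 131 and 123 CPM with IgG and 116 and 139 CPM with anti-IL-6R in shMCT-1 cells. All shMCT-1 libraries were below all scramble libraries. The log2 fold change was -0.31 ± 0.098 (SE) with IgG (edgeR adjusted p = 0.0229) and -0.23 ± 0.098 with anti-IL-6R (edgeR adjusted p = 0.0769). The first call was lost when either shMCT-1 + IgG library (adjusted p = 0.0617 without replicate 1 and 0.141 without replicate 2) or scramble + IgG replicate 2 (adjusted p = 0.0922) was left out. The second was gained without shMCT-1 + anti-IL-6R replicate 2, at -0.34 (adjusted p = 0.0152), and the value was -0.09 without replicate 1. Per length of exon, the ratio of the Yap1 to the Wwtr1 level was 0.414 to 0.472 in scramble and 0.50 to 0.567 in shMCT-1 libraries, without overlap. More Wwtr1 than Yap1 transcript per length was thus measured in all 8 libraries.

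Lats2, the kinase gene that is also a YAP target and feeds back on the pathway, was slightly lower. Lats2 (ENSMUSG00000021959, chr14:57689662-57758388, minus strand) was at 52.3 to 55.7 CPM in scramble, 42.8 and 42.3 CPM in shMCT-1 + IgG, and 36.7 and 45.1 CPM in shMCT-1 + anti-IL-6R. No shMCT-1 library reached the lowest scramble library. The log2 fold change was -0.30 ± 0.105 (SE) with IgG (edgeR adjusted p = 0.0337) and -0.34 ± 0.105 with anti-IL-6R (edgeR adjusted p = 0.0206). The call was lost with the correction for length, at -0.16 (adjusted p = 0.160) and -0.19 (adjusted p = 0.0968). With IgG it was also lost without a filter on low counts (adjusted p = 0.0519) and without any 1 of 5 libraries, scramble + IgG replicate 2 (adjusted p = 0.136), either shMCT-1 + IgG library (0.114 and 0.128) or either scramble + anti-IL-6R library (0.0590 and 0.0574). With anti-IL-6R it was lost without either scramble + anti-IL-6R library (adjusted p = 0.120 and 0.0652) and without shMCT-1 + anti-IL-6R replicate 1 (0.144), which moved the value to -0.19.

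TEAD proteins bring YAP and TAZ to DNA. Tead4 (ENSMUSG00000030353, chr6:128224288-128300823, minus strand) was at 69.6 and 62.3 CPM with IgG and 68.5 and 72.3 CPM with anti-IL-6R in scramble cells, and at 34.1 and 37.3 CPM with IgG and 32.5 and 38.1 CPM with anti-IL-6R in shMCT-1 cells. The 2 backgrounds did not overlap, and the ratio of group means was 0.541 with IgG and 0.502 with anti-IL-6R. Tead4 fell, with a log2 fold change of -0.84 ± 0.102 (SE) with IgG (edgeR adjusted p = 0.000144) and -0.94 ± 0.102 with anti-IL-6R (edgeR adjusted p = 7.73e-05). It was -0.95 and -1.03 with the correction for length.

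Tead1 (ENSMUSG00000055320, chr7:112679318-112906807, plus strand) was at 168 to 173 CPM in the 4 scramble libraries, 99.5 and 94.4 CPM in shMCT-1 + IgG, and 78.2 and 114 CPM in shMCT-1 + anti-IL-6R. All shMCT-1 libraries were lower, and the last 2 lay far from each other. Tead1 fell, with a log2 fold change of -0.76 ± 0.142 (SE) with IgG (edgeR adjusted p = 0.00159) and -0.77 ± 0.142 with anti-IL-6R (edgeR adjusted p = 0.00145). Tead1 is long, with 13570 bases of exon, and genes of like length had a median log2 fold change of -0.40 with IgG, with quartiles of -0.79 and -0.07. The correction for length brought Tead1 to -0.30 and -0.31, still called lower (edgeR adjusted p = 0.0155 and 0.0129). Replicate 2 exceeded replicate 1 of shMCT-1 + anti-IL-6R by 0.53 on the log2 scale for Tead1 and by a median of 0.28 for genes of like length.

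The 4 TEAD genes did not move together. Tead2 rose, from 104 to 109.8 CPM in scramble to 132 to 149 CPM in shMCT-1 libraries, with a log2 fold change of 0.38 with IgG (edgeR adjusted p = 0.00424) and 0.50 with anti-IL-6R (edgeR adjusted p = 0.00105). Tead3 fell, from 20.5 to 22.0 CPM to 13.5 to 14.6 CPM, with log2 fold changes of -0.53 and -0.58 (edgeR adjusted p = 0.00151 and 0.000987). Summed per kb of exon, the 4 genes reached 55.9 to 57.8 CPM per kb in scramble and 47.0 to 49.9 CPM per kb in shMCT-1 libraries. Tead2 made up 37.6 to 41.0% of that sum in scramble and 57.7 to 64.9% in shMCT-1 libraries. The share of Tead4 went from 31.0 to 34.7% down to 18.8 to 22.1%, and that of Tead1 from 21.7 to 22.3% down to 11.98 to 16.8%. The sum and the shares were taken without the correction for length. Of the VGLL cofactors, which compete with or modify TEAD binding of YAP, Vgll3 fell from 2.91 to 3.40 CPM to 0.503 to 0.938 CPM, with log2 fold changes of -2.07 and -2.03 (edgeR adjusted p = 0.000850 and 0.000952). Vgll4 was not called, at 0.00 and -0.02, and Vgll1 and Vgll2 were at most 0.0458 CPM and were not tested.

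**Figure D3:**
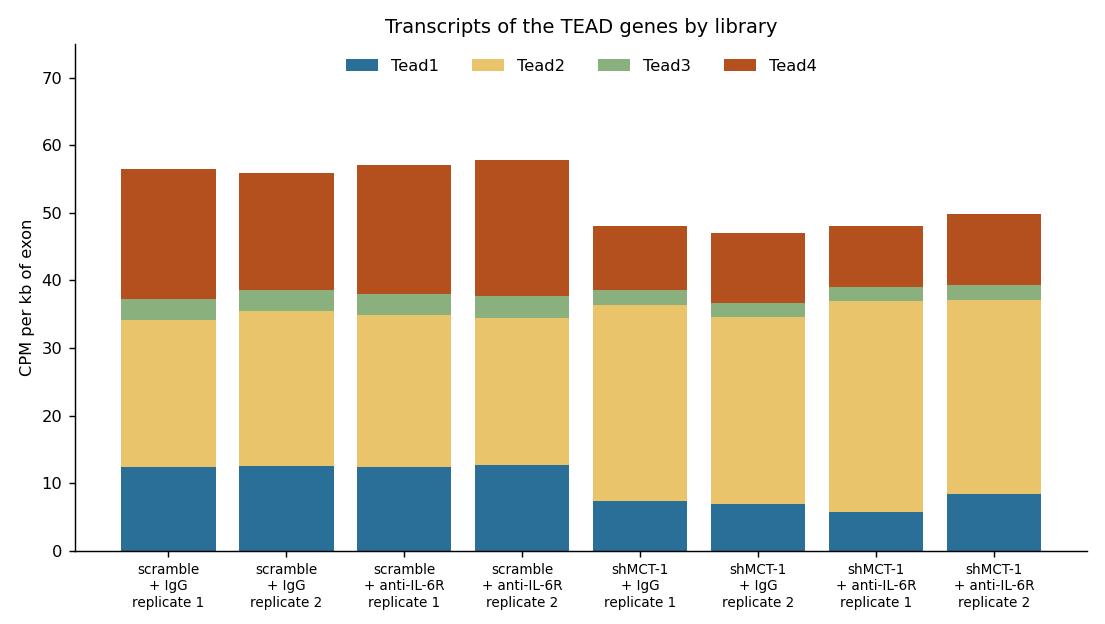
Summed level of the 4 TEAD genes in each of the 8 libraries, in CPM per kb of exon. Each gene is a colored segment, and no correction for length was made. The bars of shMCT-1 libraries are 47.0 to 49.9 CPM per kb high, below all scramble bars, and Tead2 makes up 57.7% or more of each.

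Of the 9 genes other than Ccn2, 7 did not overlap in CPM between the 4 shMCT-1 and the 4 scramble libraries, 3 above and 4 below, beside 64.1% of all tested genes, 29.9% above and 34.2% below. Per kb of exon, the order of levels in scramble cells was Axl (199 CPM per kb), Ccn1 (129), Wwtr1 (33.2), Amotl2 (21.7), Tead4 (18.9), Yap1 (14.9), Tead1 (12.5), Ccn2 (10.3), Lats2 (7.74) and Ankrd1 (6.70 CPM per kb). In shMCT-1 cells Ccn1 (310.3 CPM per kb) stood above Axl (212), followed by Ccn2 (90.9), Wwtr1 (26.6), Amotl2 (22.2) and Ankrd1 (19.1). Tead4 (9.87), Tead1 (7.11) and Lats2 (5.99 CPM per kb) were then the lowest, below Yap1 (14.1).

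Among genes that control the pathway upstream, more fell than rose in shMCT-1 cells. Of 23 kinases, adaptors and membrane scaffolds listed, 20 were tested, and 1 rose and 11 fell in both treatments, beside 23.6% and 22.7% of all tested genes. The median log2 fold change of the 20 was -0.38 with IgG and -0.35 with anti-IL-6R, beside 0.01 and 0.01 over all tested genes. With the correction for length, 1 rose and 8 fell in both treatments (Stk4, Sav1, Mob1a, Lats1, Nf2, Frmd6, Taok1 and Amot), beside 22.9% and 21.2% of all genes, and the medians were -0.09 and -0.04. Taok1, a kinase that activates MST kinases, had log2 fold changes of -0.90 and -0.88 (edgeR adjusted p = 0.000596 and 0.000646), and -0.49 and -0.47 with the correction for length. Amot, the scaffold angiomotin, had -0.72 and -0.60 (edgeR adjusted p = 0.00151 and 0.00372), and -0.50 and -0.37 with that correction. Rassf1, a partner of MST kinases, had 0.83 and 0.92 (edgeR adjusted p = 0.000168 and 8.74e-05). The other 3 listed genes, Wtip, Fat4 and Dchs1, were at most 0.137 CPM.

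Of 16 further YAP/TAZ target genes listed, 11 were tested, and 2 rose and 5 fell in both treatments, beside 23.6% and 22.7% of all tested genes. The medians were -0.25 with IgG and -0.33 with anti-IL-6R, beside 0.01 and 0.01 over all tested genes. Tgfb2, a TGF-β ligand, rose from 1.49 to 1.62 CPM in scramble to 3.33 to 6.92 CPM in shMCT-1 libraries, with log2 fold changes of 1.75 and 1.79 (edgeR adjusted p = 0.00179 and 0.00144). Nuak2, a kinase of the AMPK family, rose by 1.14 and 0.91 (edgeR adjusted p = 3.24e-05 and 9.11e-05). Crim1, a membrane protein that binds BMPs, fell by 0.66 and 0.68, and Dock5, an exchange factor for Rac, by 0.44 and 0.59 (edgeR adjusted p = 0.00376 and 0.00321, and 0.00988 and 0.00236). With the correction for length 3 rose and 2 fell in both, beside 22.9% and 21.2% of all genes. The medians were then -0.05 and -0.03, and Dock5 was no longer called, at -0.05 and -0.19. The call of Dock5 with IgG was also lost without either shMCT-1 + IgG library (adjusted p = 0.0506 and 0.0631). Without shMCT-1 + anti-IL-6R replicate 1 the values with anti-IL-6R were -0.42 for Crim1 and -0.39 for Dock5, and without replicate 2 that of Tgfb2 was 1.185. The 5 untested genes were at most 0.137 CPM.

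Of the 4 other genes of the CCN family, 2 were tested and none was called in both treatments. Of all tested genes, 46.3% were called in both in the same direction. Ccn4 (WISP1) was at 37.0 to 54.9 CPM over the 8 libraries and was not called, with log2 fold changes of 0.25 and 0.28 (edgeR adjusted p = 0.182 and 0.143). Ccn3 was lower with IgG, by a log2 fold change of -1.30 (edgeR adjusted p = 0.0291), but at no more than 1.12 CPM, and was not called with anti-IL-6R, at -0.56 (edgeR adjusted p = 0.211). Ccn5 and Ccn6 were not tested and were at most 1.41 CPM. Around Axl, the TAM receptor Tyro3 was at 23.1 to 30.1 CPM and was not called, and Mertk and the ligands Gas6 and Pros1 were at most 0.436 CPM.

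Partners of the target genes were mixed. Of the 7 AP-1 subunits, which bind many YAP-TEAD enhancers, 2 rose and 3 fell in both treatments, beside 23.6% and 22.7% of all tested genes. Junb rose by 0.49 and 0.64 and Jund by 0.55 and 0.63 on the log2 scale, whereas Fosl2 fell by 1.03 and 1.19 and Jun by 0.77 and 0.73. Jund was at 0.28 and 0.40 and Junb at 0.27 and 0.44 with the correction for length, all still called. Without that correction the edgeR adjusted p was at most 0.00279 for each of these genes. Of the 9 genes of SRF, its MRTF co-activators and their targets, 5 were tested. Of these, 1 was higher and 2 were lower in both treatments, beside 23.6% and 22.7% of all tested genes. Mrtfa had log2 fold changes of 0.30 and 0.30 (edgeR adjusted p = 0.0128 and 0.0118), Mrtfb -0.62 and -0.64 (edgeR adjusted p = 0.00517 and 0.00456), and Vcl, which encodes vinculin of the cell-matrix contacts, -0.39 and -0.34 (edgeR adjusted p = 0.0182 and 0.0312). With the correction for length Mrtfb was at -0.37 and -0.38, still called, and the calls of Vcl were lost, at -0.18 and -0.12. With IgG the call of Vcl was also lost without scramble + IgG replicate 2 (adjusted p = 0.0647) and without either shMCT-1 + IgG library (adjusted p = 0.0550 and 0.115), and with anti-IL-6R without either scramble + anti-IL-6R library (adjusted p = 0.0865 and 0.142), without shMCT-1 + anti-IL-6R replicate 1 (adjusted p = 0.215) and in a fit of the 4 libraries compared (adjusted p = 0.0539). Without that shMCT-1 + anti-IL-6R replicate 1 the values with anti-IL-6R were -0.15 for Vcl and -0.39 for Mrtfb, and without replicate 2 that of Vcl was -0.54. The call of Mrtfa was lost with IgG without shMCT-1 + IgG replicate 1 (adjusted p = 0.107), and with anti-IL-6R without either scramble + anti-IL-6R library (adjusted p = 0.100 and 0.0765). The muscle-type targets Acta2, Tagln, Cnn1 and Myl9 were at most 0.498 CPM.

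TGF-β signaling shares target genes such as Ccn2 with YAP. Of 8 of its ligands, receptors and targets, 3 rose and 4 fell in both treatments, beside 23.6% and 22.7% of all tested genes. The split was the same with the correction for length, beside 22.9% and 21.2% of all genes. Tgfbi, a matrix protein, rose from at most 0.788 CPM in scramble to 2.64 CPM or more in shMCT-1 libraries, with log2 fold changes of 2.54 and 2.95 (edgeR adjusted p = 0.000178 and 0.000106). The receptor gene Tgfbr1 fell by 1.00 and 0.88 (edgeR adjusted p = 5.73e-05 and 0.000109) and the signal transducer Smad3 by 1.13 with IgG (edgeR adjusted p = 9.43e-06), with a call in the same direction with anti-IL-6R (edgeR adjusted p = 6.86e-06).

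**Figure D4:**
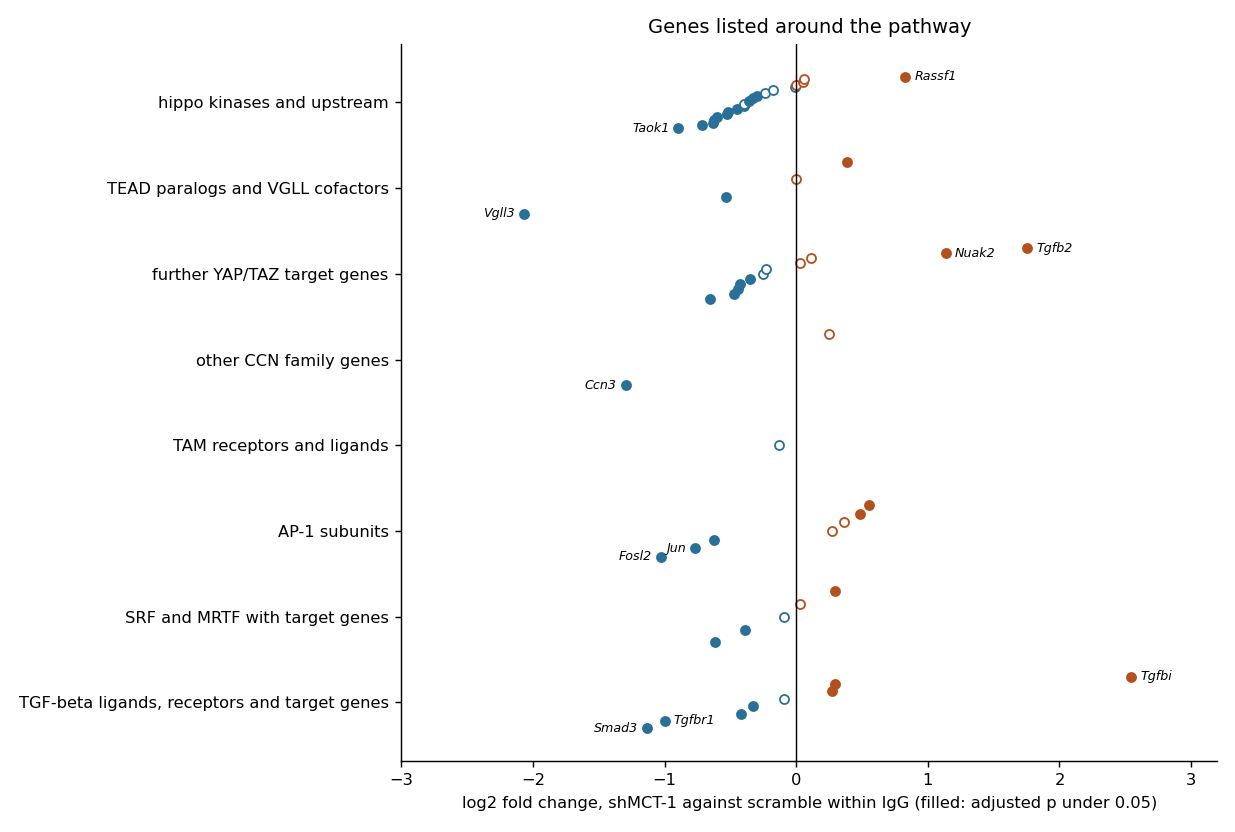
Log2 fold change of each tested gene in shMCT-1 against scramble cells with IgG (horizontal axis), by list (rows); filled points have an adjusted p below 0.05, and the genes farthest from 0 are named. Most upstream genes lie left of 0, with Rassf1 at 0.83 the exception that was called, while Tgfb2, Nuak2 and Tgfbi lie far to the right.

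The profiles most like that of Ccn2 over the 8 libraries, by the root mean square difference of centered log2 CPM, were those of Adam19 (0.121), Rnf165 (0.141), Rem2 (0.153), Vcam1 (0.162) and Fzd9 (0.179). Adam19, a membrane metalloprotease, averaged 2.52 CPM in scramble and 22.5 CPM in shMCT-1 libraries, and Vcam1, an adhesion molecule, 4.56 and 33.8 CPM. Ankrd1 lay at 0.821 and Ccn1 at 0.940 from Ccn2. Nearest to Ccn1 were Marcksl1 (0.0584), Anxa6 (0.0689), Snx19 (0.0710), Slc46a1 (0.0733) and Fam149a (0.0744), with Ankrd1 at 0.169. All points share the same 8 libraries, and the order of likeness is a description.

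The comparison of anti-IL-6R with IgG asked how blockade of the receptor changed the pathway in each background. No gene among the 10 was called by edgeR in scramble or in shMCT-1 cells, nor in the test of the difference between the 2 responses, and none of the 12704 genes was (0%). At an unadjusted p below 0.05 edgeR gave 0 of the 10 genes in scramble, beside 1.31% of all genes, 1 in shMCT-1 beside 3.98%, and 2 for the difference beside 2.48%. Ccn2, picked for its rise in these libraries, was the gene in shMCT-1 and 1 of the 2 for the difference. DESeq2 called 0, 11 and 6 of all genes in these comparisons, and the exact test of edgeR 10 in scramble and 9 in shMCT-1 cells. Without a filter on low counts edgeR called 64, 133 and 97 of 27528 genes, and none of these alternatives called any of the 10. The responses of the 10 genes in scramble cells ran from -0.20 (Ccn2) to 0.09 (Tead4) on the log2 scale and in shMCT-1 cells from -0.05 (Lats2) to 0.23 (Ccn2).

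The responses of Ccn2 and Ankrd1 had opposite signs in the 2 backgrounds, though none was called. In scramble cells both anti-IL-6R libraries were below both IgG libraries for Ccn2 and for Ankrd1, and in shMCT-1 cells both were above. The share of all genes with such an order was not counted, so the order is a description. The log2 response of Ccn2 was -0.20 in scramble cells (95% interval -0.43 to 0.03) and 0.23 in shMCT-1 cells (0.01 to 0.44), and that of Ankrd1 was -0.18 and 0.18. Ccn1 was at -0.01 in scramble cells (-0.23 to 0.20) and at 0.20 in shMCT-1 cells (-0.02 to 0.42). For Axl the intervals were -0.15 to 0.20 in scramble and -0.11 to 0.23 in shMCT-1 cells, and for Yap1 -0.14 to 0.21 and -0.12 to 0.23. Tead1 had the widest intervals of the 10, -0.30 to 0.32 and -0.33 to 0.31. Its response in shMCT-1 cells was 0.24 when replicate 1 of shMCT-1 + anti-IL-6R was left out and -0.29 when replicate 2 was.

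**Figure D5:**
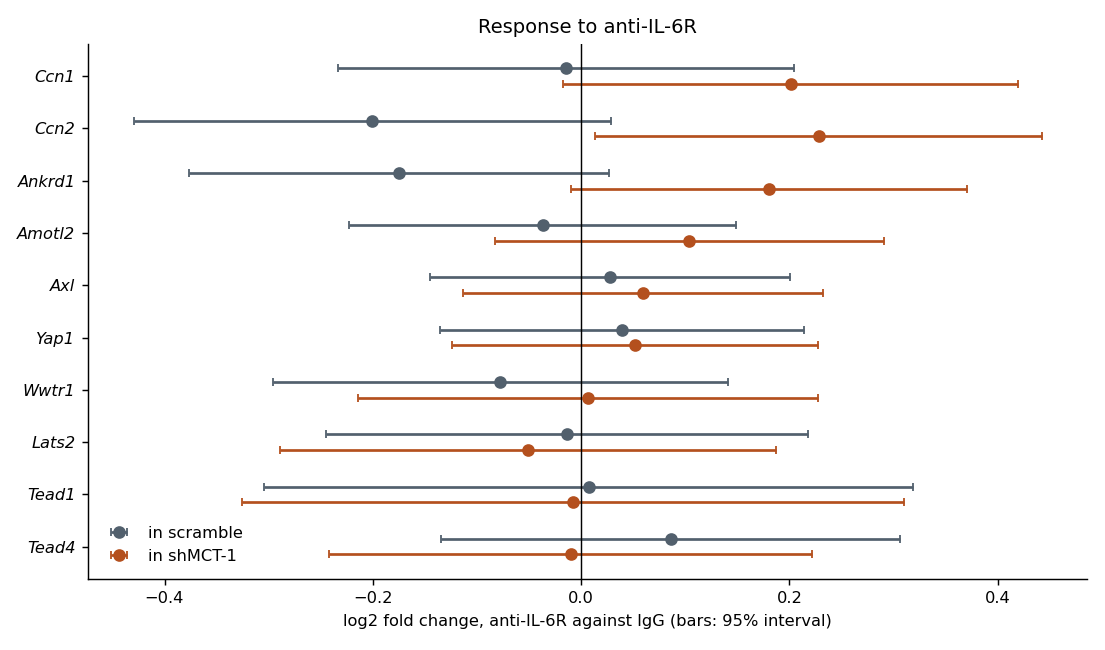
Log2 fold change of each gene with anti-IL-6R against IgG (horizontal axis) in scramble and in shMCT-1 cells; bars are 95% intervals. The points of Ccn2 lie at -0.20 and 0.23 on either side of 0, and all 10 genes stay within 0.23 of 0.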

How the data were processed

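The authors ran cutadapt 1.18 for trimming and STAR 2.7.0d for alignment on mm10 with GENCODE release M19, and deposited RSEM expected counts of 54532 genes for each of the 8 libraries, which hold no normalization for depth or length. Whether duplicates were removed was not given in the sources used here. Of the values above 0, 29.6% were not whole (tolerance 1e-09), and all were rounded. Groups came from the sample labels.

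Genes above 1 CPM in at least 2 libraries (12704) were tested with edgeR 4.0.16 (R 4.3.3), TMM factors and the quasi-likelihood test on 4 group means, which left 4 residual degrees of freedom. Adjusted p is by Benjamini-Hochberg over all genes tested, called below 0.05. CPM is per library total. SE is the log2 fold change over the root of F, and 95% intervals use the t distribution with the total degrees of freedom of the fit. These add to the 4 residual ones those that edgeR draws from the spread of all genes. A level of 1 CPM stood for 19.8 to 33.1 counts. Fits were tested on simulated data. Gene coordinates and exonic lengths come from GENCODE M21 on GRCm38, and promoter windows from RefSeq.

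The 10 genes, the lists and the genes named were chosen with earlier results of these data known. Named are the 10 genes, Mcts1, the 2 genes of each list that rose and fell most among those called in both treatments, every gene of a list of up to 6, and the 5 profiles nearest to Ccn2 and to Ccn1. One gene that this rule would name is not reported here. Epcam, Pdgfra, Cd68, Adgre1 and Cd3e, the untested list genes and the 8 upstream genes still lower after the correction for length were named after their values were seen. Alternatives were RLE factors, DESeq2 1.42.0, the exact test of edgeR, a fit of the 4 libraries compared, no filter, filterByExpr, a replicate block and each library left out. A correction for length, a loess curve (span 0.3) of each library on log2 exonic length used as an offset, was added after the data were seen.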

Additional observations from a re-analysis of the deposited data

Results flagged for a closer look

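The response of Ccn2 to anti-IL-6R ran in opposite directions in the 2 backgrounds, lower in scramble and higher in shMCT-1 cells, and was called in neither. The difference between the 2 responses was 0.43 ± 0.140 (SE) on the log2 scale, with an unadjusted p = 0.0124 and an adjusted p = 1.00 in edgeR's quasi-likelihood test, so it did not pass the correction over all genes. It lay between 0.31 and 0.55 when single libraries were left out. Ccn2 was picked for its rise in these same libraries, so its p-value here is a description. Ankrd1 showed the same pattern, with a difference of 0.36, an unadjusted p = 0.0171 and an adjusted p = 1.00 in the same edgeR test, and 0.31 to 0.42 with single libraries left out.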

How the results depend on the processing

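Of the values of single genes for shMCT-1 against scramble under an alternative, 978 kept their direction and their side of the threshold, 31 lost and 2 gained a call with the same sign, 9 changed sign, 2 of them (Yap1 with the correction for length) also gaining a call, and 4, all of Ccn2, moved by more than the spread between replicates. Among the 9 genes, the calls that changed when single libraries were left out were those of Wwtr1 and Lats2. With IgG, Wwtr1 then ran from -0.37 to -0.26 and Lats2 from -0.37 to -0.24. With anti-IL-6R, Wwtr1 ran from -0.34 to -0.09 and Lats2 from -0.48 to -0.19. Deviations of same-numbered libraries from their group means correlated little (correlations from -0.0797 to 0.106), which does not settle whether these libraries were paired. With the replicate block 6 and 5 of the 9 genes were again called, with 7035 and 7017 of all genes against 6912 and 6894.

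Values that changed sign were near 0 in most cases, and the cause was not tested. With IgG, Amotl2 went to -0.0056 with RLE factors, -0.0055 with DESeq2, -0.00063 with the exact test and -0.00065 in the fit of 4 libraries. With the correction for length, chosen after seeing the data, Yap1 went to 0.22 with IgG and 0.25 with anti-IL-6R. Among responses to anti-IL-6R without a filter on low counts, Ccn1 went to 0.010 and Lats2 to 0.0098 in scramble cells, and Tead1 to 0.013 and Tead4 to 0.011 in shMCT-1 cells. In shMCT-1 cells Tead1 went to 0.0053 with RLE factors, 0.0051 with DESeq2, 0.00024 with the exact test and 0.00067 in the fit of 4 libraries, and Tead4 to 0.0037 with RLE factors and DESeq2 and 0.00016 with the correction for length.

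With single libraries left out, shMCT-1 against scramble ran from -0.038 to 0.060 for Amotl2 with IgG and from -0.063 to 0.045 for Yap1 with anti-IL-6R. Responses in scramble cells ran from -0.10 to 0.082 for Ccn1, -0.083 to 0.012 for Amotl2, -0.074 to 0.049 for Lats2 and -0.016 to 0.031 for Tead1. Those in shMCT-1 cells ran from -0.11 to 0.14 for Wwtr1, -0.19 to 0.093 for Lats2, -0.29 to 0.24 for Tead1 and -0.11 to 0.10 for Tead4. Differences between the responses ran from -0.022 to 0.086 for Yap1, -0.025 to 0.22 for Wwtr1, -0.17 to 0.12 for Lats2, -0.29 to 0.25 for Tead1 and -0.19 to 0.029 for Tead4. With 2 libraries a group, an exact permutation test cannot go below p = 0.3333, so only fits over all genes were used, and the lone library left in a group is assumed to vary like the others.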
